A study of Arabidopsis thaliana with 6 samples.

Results

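Nitrate transport and nitrogen assimilation were followed through 10 genes of Arabidopsis thaliana, listed by locus identifier for their roles in the pathway, out of 28775 genes in the count files. These genes and the wider list below were chosen with earlier results of these data known. Their counts and medians beside all genes are therefore a description and no test. They encode the nitrate transporters NRT1.1 (AT1G12110), NRT1.5 (AT1G32450), NRT1.8 (AT4G21680) and NRT2.1 (AT1G08090), the nitrate reductases NIA1 (AT1G77760) and NIA2 (AT1G37130), the nitrite reductase NIR1 (AT2G15620), the cytosolic and plastid glutamine synthetases GLN1;1 (AT5G37600) and GLN2 (AT5G35630), and the ferredoxin-dependent glutamate synthase GLU1 (AT5G04140). Poly(A) RNA was sequenced from the aerial part of seedlings 2 weeks old, grown at 22 °C in 16 h of light and 8 h of dark, with 3 libraries of wild-type Col-0 and 3 of the mutant myc2. MYC2 belongs to the bHLH transcription factors and is best known from jasmonate signalling. The labels name no allele for myc2, no growth medium or nitrogen supply and no hour of harvest, and they do not say whether replicates were separate cultures, so p-values measure the spread between these libraries only.

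Nitrate enters plant cells through the NRT1 and NRT2 transporter families and is moved between root and shoot in the xylem. In leaf cells nitrate reductase turns it into nitrite in the cytosol, nitrite reductase turns nitrite into ammonium in the plastid, and glutamine synthetase with glutamate synthase builds the ammonium into amino acids. Plastid glutamine synthetase and ferredoxin-dependent glutamate synthase also recapture the ammonium that photorespiration releases in leaves. Transcripts of NIA1, NIA2 and NIR1 are known to be induced by nitrate and to follow light, sugar and the time of day.

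Totals ran from 21165967 to 30604815 counts per library, so that 1 read was worth 0.0344 to 0.0482 CPM, the reads of a gene per 1e+06 scaled reads of its library. MYC2 itself (AT1G32640) was lower in the 3 myc2 libraries, at 71.2 ± 2.26 CPM (SD, n = 3) against 192 ± 15.5 CPM, and AT1G32630 lies on the opposite strand over 3241 bp of it. A code that opens the names in the file headers was read here as the sequencing run. The labels do not say what the code stands for. Col-0 replicates 1 and 2 shared 1 such run, Col-0 replicate 3 had another and all 3 myc2 libraries a further one. The genotypes therefore cannot be told apart from their runs. When the Col-0 runs were set against each other, 2950 of 18961 genes (15.6%) passed in an edgeR fit of the 3 runs as groups, and NIR1 was the 1 member among them. Replicate 3 is the only library of its run, so tests that use it alone take their spread from the other libraries and assume that it varies as they do. Shoot marker genes for photosynthesis summed to 40800 to 47810 CPM in Col-0 and 38540 to 40100 CPM in myc2, without overlap. The part of this difference in the results was not tested. Of these 5 genes, 1 was lower by edgeR (RBCS1A, log2 fold change -0.24, adjusted p = 0.029) and 0 higher. These 20% stand beside 18.7% of all genes tested. RBCS1A lost its call without Col-0 replicate 2 or any 1 myc2 library (adjusted p 0.0503 to 0.12). The levels of CAB1, CAB3 and GAPA overlapped between genotypes. The 11 root markers summed to 280.4 to 300.3 CPM in Col-0 and 525.8 to 539 CPM in myc2. Without PYK10 the sums were 47.04 to 57.2 and 64.55 to 66.54 CPM. The 8 markers other than PYK10, SCR and SHR summed to 0.916 to 1.15 CPM in Col-0 and 0.454 to 1.35 CPM in myc2, with IRT1 and RHD6 at 0 in all 6 libraries. PYK10, a beta-glucosidase abundant in roots and also on the root list, was at 251, 247 and 223 CPM in Col-0 and 459, 469 and 474 CPM in myc2, and its part in the results was not tested.

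Of the 10 genes, 9 had enough reads to be tested, and in myc2 2 of them rose, 6 fell and 1 did not pass the threshold of an adjusted p under 0.05 (edgeR quasi-likelihood test, Benjamini-Hochberg over 18961 genes). Of all genes tested 36.3% passed, 17.6% higher and 18.7% lower. Of 11 root markers, 4 were tested and 3 were higher (PYK10, SCR and SHR), though SHR lost its call under DESeq2 (adjusted p = 0.0603) and without Col-0 replicate 1 or 2 or myc2 replicate 1 or 2 (0.0679 to 0.114), and SHR and SCR had 0.102 and 0.07 against Col-0 replicate 3 alone. The 2 that rose were NRT1.1 and GLN1;1, and the 6 that fell were NIA1, NIA2, NIR1, NRT1.8, GLN2 and GLU1. The median log2 fold change of the 9 genes was -0.36, beside 0.01 over all genes tested. In 8 of the 9 the 3 libraries of one genotype lay wholly above those of the other, which held for 49.7% of all genes tested. In bulk tissue, fewer cells of a type and less RNA per cell cannot be told apart.

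**Figure D1:**
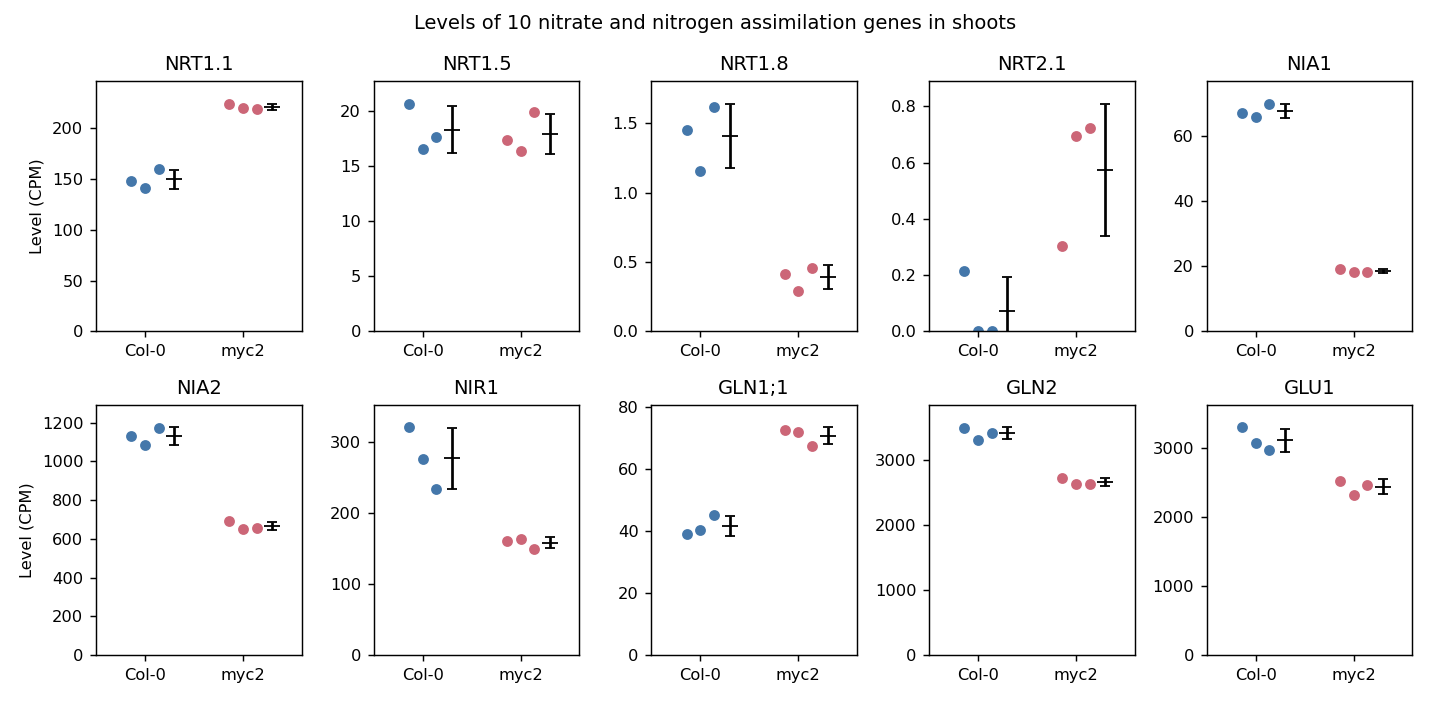
Level of each of the 10 genes in CPM (y axis, linear from 0, own scale per panel) in the 3 Col-0 (blue) and 3 myc2 (red) libraries, with black bars for mean ± SD. The genotypes separate in every panel except NRT1.5, with NRT1.1, NRT2.1 and GLN1;1 higher in myc2 and the others lower.

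The panels of levels by library show how tightly most genes clustered within a genotype, with the widest relative spread among the 3 Col-0 libraries in NIR1 of the well-read genes. Exon lengths were used to set the genes on 1 scale. Per kb of exon, GLN2 was the most abundant of the 10 in Col-0 at 1621 ± 43.9 CPM per kb (SD, n = 3), followed by GLU1 at 566 ± 30.9, NIA2 at 353 ± 14.2 and NIR1 at 126 ± 19.7 CPM per kb. NRT1.1 stood at 68.0 ± 4.18, GLN1;1 at 26.2 ± 2.07, NIA1 at 21.5 ± 0.655, NRT1.5 at 8.27 ± 0.960 and NRT1.8 at 0.644 ± 0.107 CPM per kb, and NRT2.1 was last. No neighbours in this order overlapped between libraries. In myc2 the order changed at 3 places: NRT1.1 (100.5 ± 1.251 CPM per kb) stood above NIR1 (72.0 ± 3.37), NRT1.5 (8.09 ± 0.829) above NIA1 (5.88 ± 0.176), and NRT2.1 beside NRT1.8, with overlapping libraries for that last pair only.

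NIA1 was read at 67.3, 66.0 and 70.0 CPM in the Col-0 libraries and at 19.2, 18.1 and 18.4 CPM in the myc2 libraries. The genotypes did not overlap. The level fell 3.66-fold, with a log2 fold change of -1.87 (SE 0.071, 95% interval -2.03 to -1.72) and an adjusted p of 3.38e-09 by edgeR, and 1.85% of the genes tested had a larger change in either direction. NIA1 lies at chr1:29235721-29239484 on the minus strand of the TAIR10.1 assembly and overlaps no other annotated gene.

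NIA2, which carries most of the nitrate reductase activity in Arabidopsis leaves, was read at 1132, 1084 and 1175 CPM in Col-0 and at 692, 651 and 659 CPM in myc2. The groups did not overlap. The fall was 1.69-fold, with a log2 fold change of -0.76 (SE 0.057) and an adjusted p of 1.06e-06 by edgeR. NIA2 lies at chr1:14158452-14161938 on the plus strand.

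The fitted falls of NIA1 and NIA2 differed in size, and their 95% intervals did not overlap. Per kb of exon, NIA1 made up 5.70%, 5.82% and 5.71% of the nitrate reductase transcripts in Col-0 and 2.74%, 2.74% and 2.75% in myc2. The libraries of a genotype lay close together, and the genotypes differed by -2.998 points (myc2 minus Col-0). An exact two-sided permutation test over the 6 libraries gave p = 0.1, which is the smallest p that 3 against 3 libraries allow. The summed level of NIA1 and NIA2 went from 374 ± 14.8 to 214 ± 6.93 CPM per kb (SD, n = 3), 1.75-fold lower. The longest stretch the NIA1 and NIA2 exons share is 20 bp, shorter than the reads of 150 bp, and they have no 30-base word in common.

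NIR1, which encodes the plastid nitrite reductase, was read at 320, 276 and 234 CPM in Col-0 and at 160, 164 and 150 CPM in myc2. The lowest Col-0 library, replicate 3, still lay above the highest myc2 library. The log2 fold change was -0.81 (SE 0.098, 1.75-fold lower, adjusted p = 9.48e-05 by edgeR). Col-0 replicate 3 itself was below Col-0 replicates 1 and 2 by a log2 difference of -0.35 (adjusted p = 0.0041, with the spread taken from the other libraries), so that the fall was -0.92 when myc2 was set against replicates 1 and 2, but -0.57 when set against replicate 3. NIR1 lies at chr2:6810395-6812941 on the plus strand.

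NRT1.1, a dual-affinity nitrate transporter that also acts as a nitrate sensor, was read at 148, 142 and 160 CPM in Col-0 and at 224, 220 and 219 CPM in myc2. All myc2 libraries were above all Col-0 libraries, and the log2 fold change was 0.56 (SE 0.061, 1.48-fold higher, adjusted p = 2.51e-05 by edgeR). NRT1.1 lies at chr1:4105223-4109601 on the plus strand. It was the 1 tested transporter of the 3 to rise.

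NRT1.5, which loads nitrate into the root xylem, was read at 20.7, 16.6 and 17.7 CPM in Col-0 and at 17.4, 16.4 and 19.97 CPM in myc2. The groups overlapped, and the log2 difference was -0.03 with a 95% interval of -0.27 to 0.21 (adjusted p = 0.845 by edgeR). NRT1.5 lies at chr1:11715147-11719988 on the minus strand and shares 16 bp with PKp3 on the opposite strand.

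NRT1.8, which takes nitrate back out of the xylem, was scarce. It had 34, 24 and 47 reads in Col-0 and 11, 8 and 12 reads in myc2, or 1.45, 1.16 and 1.62 CPM against 0.416, 0.293 and 0.457 CPM. No library overlapped between genotypes, and the log2 fold change was -1.86 (SE 0.286, 95% interval -2.49 to -1.24, adjusted p = 0.000369 by edgeR), the widest interval among the tested members. NRT1.8 lies at chr4:11517353-11519805 on the minus strand and shares 44 bp with CPL1 on the opposite strand. The log2 ratio of NRT1.8 to NRT1.5 per kb of exon was -3.82, -3.82 and -3.43 in Col-0 and -5.37, -5.79 and -5.43 in myc2, a difference of -1.84 (exact permutation p = 0.1, the smallest possible).

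NRT2.1, the main high-affinity nitrate uptake transporter of roots, had 5, 0 and 0 reads in Col-0 and 8, 19 and 19 reads in myc2, too few to enter the test. Pooled over libraries, 46 reads in myc2 against 5 in Col-0 gave a depth-scaled ratio of 8.43, with a 95% exact interval of 3.36 to 27.2 that covers counting error only. With genes of 1 or more reads let into the fit, edgeR gave a log2 fold change of 2.98 (SE 0.769, adjusted p = 0.00753), and DESeq2 gave 3.04 (adjusted p = 0.00716). The size rests on Col-0 replicate 1, the 1 Col-0 library with reads. Under the usual filter NRT2.1 was tested when certain libraries were left out, with a log2 value of 6.91 without Col-0 replicate 1, which is no bound because the remaining Col-0 libraries are at 0, and of 2.52 without Col-0 replicate 2, 2.298 without Col-0 replicate 3 and 3.28 without myc2 replicate 1. NRT2.1 lies at chr1:2524023-2526322 on the plus strand. A run of 170 bp is identical with NRT2.2, so reads from that run may have been dropped. NRT2.2 stood at 0 reads in all 6 libraries, so none were counted for it.

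GLN1;1, a cytosolic glutamine synthetase, was read at 39.2, 40.3 and 45.4 CPM in Col-0 and at 72.7, 72.0 and 67.7 CPM in myc2. Every myc2 library was above every Col-0 library, and the rise was 1.699-fold, with a log2 fold change of 0.77 (SE 0.075, adjusted p = 1.08e-05 by edgeR). GLN1;1 lies at chr5:14933286-14935885 on the minus strand, and its longest identical stretch with GLN1;2, GLN1;3, GLN1;4, GLN1;5 or GLN2 is 44 bp, in GLN1;2.

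GLN2, the plastid glutamine synthetase, was read at 3496, 3311 and 3412 CPM in Col-0 and at 2722, 2628 and 2625 CPM in myc2. The groups did not overlap, and the log2 fold change was -0.36 (SE 0.053, 1.28-fold lower, adjusted p = 3e-04 by edgeR). GLN2 lies at chr5:13830429-13833542 on the plus strand.

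GLN1;1 and GLN2 thus moved in opposite directions. The log2 ratio of GLN1;1 to GLN2 per kb of exon was -6.07, -5.96 and -5.83 in Col-0 and -4.82, -4.79 and -4.87 in myc2, a difference of 1.13 (exact permutation p = 0.1, the smallest possible). GLN1;1 stayed the minor form, with 1.30% of all glutamine synthetase transcripts in Col-0 and 2.63% in myc2, while GLN2 went from 80.4% to 74.5%. The summed level of all 6 glutamine synthetase genes went from 2017 ± 55.2 to 1698 ± 29.5 CPM per kb (SD, n = 3).

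GLU1, the ferredoxin-dependent glutamate synthase of leaves, was read at 3294, 3068 and 2962 CPM in Col-0 and at 2524, 2316 and 2466 CPM in myc2. The groups did not overlap, and the log2 fold change was -0.35 (SE 0.061, 1.28-fold lower, adjusted p = 0.000878 by edgeR). GLU1 lies at chr5:1129785-1138488 on the plus strand and shares 79 bp with BHLH101 on the opposite strand. Its share of the glutamate synthase transcripts, counted with GLU2 and the NADH-dependent GLT1, was 91.7 ± 0.245% in Col-0 and 91.7 ± 0.147% in myc2 (SD, n = 3), with exact permutation p = 0.8. GLU2 (log2 fold change -0.28, adjusted p = 0.0151) and GLT1 (-0.39, adjusted p = 0.000354) fell as well.

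**Figure D2:**
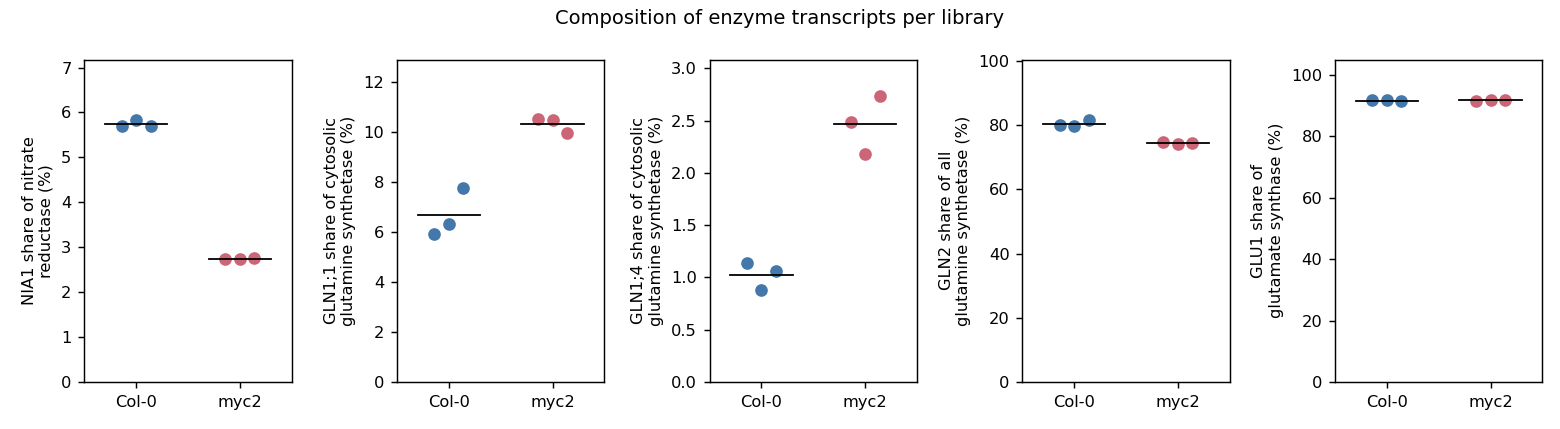
Share in percent (y axis, from 0) of the named gene among the transcripts of its enzyme, per kb of exon, in the 3 Col-0 (blue) and 3 myc2 (red) libraries, with lines at the means. NIA1 went from 5.74% to 2.74% of nitrate reductase and GLN1;1 from 6.66% to 10.3% of cytosolic glutamine synthetase, while GLU1 stayed near 91.7% of glutamate synthase.

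The plot of enzyme shares sets these families side by side. Among the cytosolic glutamine synthetases, GLN1;2 held the largest share in both genotypes (83.3% in Col-0 and 79.4% in myc2) and its own level, 556 ± 46.5 and 579 ± 3.90 CPM, did not pass the test (log2 difference 0.06, adjusted p = 0.534 by edgeR). GLN1;4, a minor cytosolic form, rose from 6.83 ± 1.05 to 18.0 ± 1.92 CPM (log2 fold change 1.39, adjusted p = 6.37e-06), and its share went from 1.02% to 2.47%. The exact permutation p was 0.1 for the shares of GLN1;1 to GLN1;4, the smallest possible.

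Since the header codes read as runs differed within Col-0, the myc2 libraries were also set against each Col-0 run alone. Both comparisons use the same 3 myc2 libraries of 1 further run, so they cannot separate genotype from that run. All 8 members past the threshold kept their direction against both Col-0 runs. Their adjusted p was also under the threshold against both, but the test against replicate 3 has a single Col-0 library, whose spread is assumed and not measured. GLN2 changed least between these comparisons, at -0.36 against replicates 1 and 2 and -0.36 against replicate 3, and NIA1 stood at -1.85 and -1.92. NRT1.1 stood at 0.61 and 0.47, GLN1;1 at 0.83 and 0.64, NIA2 at -0.73 and -0.82, NRT1.8 at -1.74 and -2.05, and GLU1 at -0.39 and -0.28. NRT1.5 stood at -0.06 and 0.02.

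**Figure D3:**
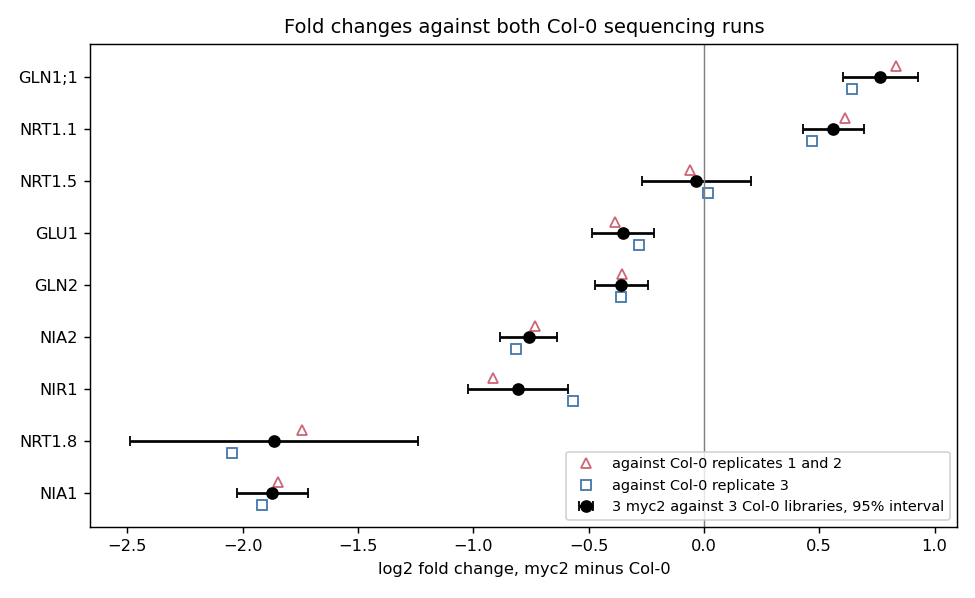
log2 fold change (x axis, myc2 minus Col-0) of the 9 tested genes from all 6 libraries (black, with 95% intervals) and against each Col-0 run, as read from the file headers (triangles, replicates 1 and 2, and squares, replicate 3). Every gene except NRT1.5 lies on 1 side of 0 in all 3 comparisons, with NIR1 the most divided by run, at -0.92 and -0.57.

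The plot of fold changes by run shows that no member but NRT1.5 crossed 0. Of 8 clock genes tested, 6 were higher in myc2 and 0 lower, beside 17.6% and 18.7% of all genes tested. The summed clock gene level was 1305 to 1521 CPM in Col-0 and 1898 to 1929 CPM in myc2. Of the 6, CCA1 lost its call without any 1 myc2 library (adjusted p 0.0524 to 0.0653) and GI without Col-0 replicate 1 or 2 or myc2 replicate 1 or 3 (0.0591 to 0.123), with 0.0511 for GI against Col-0 replicate 3 alone. The part of harvest time in the levels of NIA1, NIA2 and NIR1 was not tested.

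A wider list of 87 further nitrogen genes in the files, without the 10, held 77 that were tested, of which 18 rose (23.4%), 28 fell (36.4%) and 31 did not pass, beside 17.6% and 18.7% of all genes tested. Their median log2 fold change was -0.06. These shares describe a list chosen with earlier results known. By group, the transport and regulatory genes were mixed in direction, the ammonium transporters passed on the higher side only, and the cofactor and reductant genes on the lower side only.

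**Figure D4:**
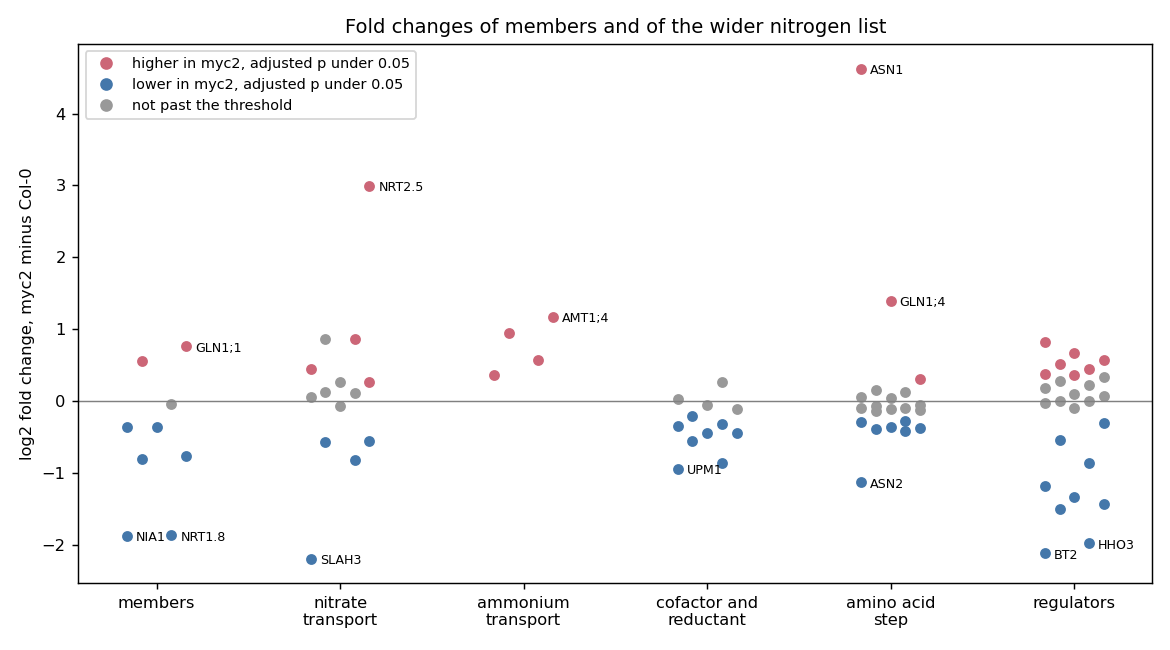
log2 fold change (y axis, myc2 minus Col-0) of each tested gene, grouped as the 9 tested members and the 5 groups of the wider list, with red for higher, blue for lower and grey for not past the threshold. The cofactor and reductant group holds 8 lower and 0 higher genes, the ammonium transporters 4 higher and 0 lower. Of all genes tested 17.6% were higher and 18.7% lower.

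In the plot of the wider list, 8 of 12 cofactor and reductant genes (66.7%) passed the threshold on the lower side and 0 on the higher side. Their median was -0.34, and of all genes tested 18.7% were lower and 17.6% higher. UPM1, which makes the precursor of the siroheme that nitrite reductase carries, fell from 60.04 ± 9.63 to 31.3 ± 0.634 CPM (log2 fold change -0.94, adjusted p = 2.43e-05 by edgeR). Against Col-0 replicates 1 and 2 the value for UPM1 was -0.80, and against replicate 3 it was -1.18. G6PD3, a plastid glucose-6-phosphate dehydrogenase, fell from 9.97 ± 0.447 to 5.53 ± 0.329 CPM (-0.85, adjusted p = 0.000102), and a non-coding gene lies on the opposite strand over 315 bp of it. The other 6 that fell were the molybdenum cofactor genes CNX1, CNX2 and CNX6, the root-type ferredoxin reductase genes RFNR1 and RFNR2, and G6PD2, with log2 fold changes from -0.56 to -0.20. CNX5 was the most abundant gene of the group that did not pass, at 29.1 and 27.0 CPM.

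Among 14 tested nitrate transport genes, 4 rose and 4 fell (28.6% each), beside 17.6% and 18.7% of all genes tested. SLAH3, a nitrate-permeable anion channel, fell from 32.4 ± 2.72 to 7.10 ± 0.706 CPM (log2 fold change -2.19, adjusted p = 2.22e-08 by edgeR), and NRT1.7, which loads nitrate into the phloem of old leaves, from 66.9 ± 3.09 to 37.9 ± 2.51 CPM (-0.82, adjusted p = 5.44e-06). NRT2.5, a high-affinity transporter known from nitrogen-starved plants, had 4, 7 and 6 reads in Col-0 and 39, 44 and 68 in myc2 (log2 fold change 3.00, adjusted p = 6.56e-05). NRT1.12, which passes nitrate to the phloem for young leaves, rose from 8.33 ± 1.06 to 15.2 ± 1.63 CPM (0.86, adjusted p = 0.000219), and a non-coding gene lies on the opposite strand over 1514 bp of it. With folds under 1.5, and named after their values were seen, NRT1.2 and NRT1.11 also rose (0.26 and 0.44), and NRT1.4 and the vacuolar exchanger CLCa also fell (-0.55 and -0.56). CLCb, at 43.6 and 41.6 CPM, was the most abundant that did not pass.

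All 4 tested ammonium transporters rose, beside 17.6% of all genes tested, with a median log2 fold change of 0.76. AMT1;1 went from 1.44 ± 0.360 to 2.74 ± 0.234 CPM (log2 fold change 0.95, adjusted p = 0.00415 by edgeR), and a non-coding gene lies on the opposite strand over 1709 bp of it. Set against Col-0 replicates 1 and 2 alone, its log2 fold change was 0.73, and it was 1.403 for replicate 3 alone. AMT1;4 had 3, 8 and 12 reads against 20, 17 and 20 (1.17, adjusted p = 0.0335), and the call was lost under DESeq2 (adjusted p = 0.113) and, with adjusted p from 0.0548 to 0.1, without any single library other than Col-0 replicate 3. AMT1;2, the most abundant of them at 112 ± 13.7 and 144 ± 2.79 CPM, and AMT2;1 passed with folds under 1.5 and are named here after their values were seen.

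In the group of amino acid genes, 3 of 21 rose (ASN1, GLN1;4 and, with a fold under 1.5, GDH2) and 7 fell. These are 14.3% and 33.3%, beside 17.6% and 18.7% of all genes tested. ASN1, the asparagine synthetase known from dark or sugar-starved leaves, had 1, 3 and 17 reads in Col-0 and 170, 200 and 201 in myc2. The log2 fold change was 4.63 (adjusted p = 3.64e-06 by edgeR), and it varied with the Col-0 library, with a value of 6.23 when the other Col-0 libraries alone were used and of 3.60 for replicate 3 alone. ASN2, a further asparagine synthetase, fell from 367 ± 32.0 to 168 ± 1.67 CPM (-1.13, adjusted p = 1.63e-07), so that the summed asparagine synthetase level went from 188 ± 16.6 to 99.5 ± 2.15 CPM per kb.

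Among 26 tested regulators, 7 rose (26.9%) and 9 fell (34.6%), beside 17.6% and 18.7% of all genes tested. Of these 16, 9 changed by a fold of at least 1.5. HHO3 and HHO2, GARP-type repressors of nitrate-responsive genes that nitrate itself induces, fell from 67.1 ± 3.39 to 17.0 ± 0.924 CPM (log2 fold change -1.98, adjusted p = 4.67e-09) and from 64.5 ± 3.91 to 22.8 ± 1.17 CPM (-1.50, adjusted p = 4.14e-08). The LOB-domain genes LBD37, LBD38 and LBD39, known as nitrate-induced repressors of anthocyanin synthesis, fell by log2 fold changes of -0.86, -1.18 and -1.43, with adjusted p of 1.34e-05, 1.77e-06 and 4.77e-07. BT2, a BTB-TAZ domain protein, had 85, 76 and 89 reads in Col-0 and 20, 15 and 28 in myc2 (-2.12, adjusted p = 2.3e-05). CPK32, a calcium-dependent kinase of nitrate signalling, also fell (-1.34, adjusted p = 0.000202). Of the NIN-like transcription factors, NLP5 rose from 19.8 ± 0.732 to 31.3 ± 0.521 CPM (0.66, adjusted p = 3.57e-05) and NLP3 from 1.73 ± 0.453 to 3.11 ± 0.075 CPM (0.82, adjusted p = 0.00611). A non-coding gene lies on the opposite strand over 700 bp of NLP5. NLP2 and NLP6 rose by smaller folds (0.52 and 0.38) and NLP8 fell (-0.31), and these genes from CPK32 on are named beyond the rule, after their values were seen. NLP7, the nitrate-sensing transcription factor, was outside the naming rule, is given for its role and stood at 36.1 and 40.8 CPM (0.18, adjusted p = 0.0938), while NRG2 was the most abundant that did not pass, at 62.4 and 62.5 CPM.

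The 250 bases upstream of each annotated start of the 10 genes were read from the RefSeq TAIR10.1 genome and searched on both strands for the G-box CACGTG, which MYC2 is known to bind, and for its variant CACATG. The G-box was in 0 of the 10 windows, beside 6.49% of 27443 protein-coding genes. The variant was in NRT1.1, which rose, and in NRT1.5, which did not pass the test, beside 11.1% of all windows. These windows are shown with the match in capitals, 5′ to 3′ along the gene, and those of NIA1 and NIA2 are shown as the pair that fell by unequal amounts, with no match.
NRT1.1, chr1:4104973-4105222, plus strand: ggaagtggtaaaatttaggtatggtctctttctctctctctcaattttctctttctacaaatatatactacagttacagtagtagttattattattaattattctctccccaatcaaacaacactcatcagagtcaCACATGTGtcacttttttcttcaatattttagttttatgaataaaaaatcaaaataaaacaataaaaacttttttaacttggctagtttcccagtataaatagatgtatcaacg
NRT1.5, chr1:11719989-11720238, minus strand: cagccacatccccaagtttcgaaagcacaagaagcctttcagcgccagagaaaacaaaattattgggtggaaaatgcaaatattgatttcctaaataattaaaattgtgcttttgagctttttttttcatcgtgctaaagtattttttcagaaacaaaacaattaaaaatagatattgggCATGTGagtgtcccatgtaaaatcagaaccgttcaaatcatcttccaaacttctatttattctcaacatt
NIA1, chr1:29239485-29239734, minus strand: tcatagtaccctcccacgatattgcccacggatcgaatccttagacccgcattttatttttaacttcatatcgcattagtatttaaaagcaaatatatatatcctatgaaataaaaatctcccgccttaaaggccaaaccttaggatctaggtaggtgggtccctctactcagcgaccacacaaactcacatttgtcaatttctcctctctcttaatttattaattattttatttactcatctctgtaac
NIA2, chr1:14158202-14158451, plus strand: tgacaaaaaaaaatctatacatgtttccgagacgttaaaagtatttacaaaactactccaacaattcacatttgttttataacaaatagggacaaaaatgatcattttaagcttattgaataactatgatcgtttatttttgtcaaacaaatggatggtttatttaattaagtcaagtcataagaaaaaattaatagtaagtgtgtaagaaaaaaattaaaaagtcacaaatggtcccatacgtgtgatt

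In NRT1.1 the match lies 114 to 107 bases upstream of the annotated start, where the variant occurs on both strands and overlaps itself. In NRT1.5 it lies 70 to 65 bases upstream. The longest identical run between the NIA1 and NIA2 windows is 10 bases. The nitrate-responsive element, searched as GACNCTT, then 10 bases of any kind, then AAG, was in 0 of the 10 windows and in 0.146% of all windows. A match or its lack says only which letters stand in these windows.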

How the data were processed

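Poly(A) RNA libraries (Illumina TruSeq RNA kit) were grouped by the genotype in the labels. The submitters' processing notes name fastp, HISAT2, SAMtools, StringTie and the TAIR10 build. Tool versions, the read-counting program, its strand option and the gene models were not given in the sources used here. Reads of genes that overlap each other therefore cannot be told apart. Each file deposited by the authors holds raw read counts per gene of 1 library. A further deposited table holds their own comparison of the genotypes and was not used.

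Counts were fitted in edgeR 4.0.16 (R 4.3.3) with filterByExpr, TMM scaling and the robust quasi-likelihood F-test, without covariates, over 18961 genes. CPM were computed with TMM-scaled totals, and CPM per kb with merged exon lengths of TAIR10.1. DESeq2 1.42.0, limma-voom (limma 3.58.1), other scalings and filters, a replicate block and leaving out each library were alternatives. The calculations were also run on simulated counts with 200 changed genes, and the outcome is not given here. No pair of replicates matched within sampling noise, with a chi-square per degree of freedom of 2.51 to 20.9. Members, lists and tests were chosen with earlier results of these data known. Of each wider group, genes past the threshold with a fold of at least 1.5 were named, at most 6 by adjusted p, with the most abundant gene not past it. No protein sequences were used here.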

Additional observations from a re-analysis of the deposited data

How the results depend on the processing

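For NIA1, NIA2, NIR1, NRT1.1, NRT1.8, GLN1;1, GLN2 and GLU1, direction and side of the threshold held under every alternative that could be fitted (other scalings, DESeq2, limma-voom, 2 other filters, a replicate block, each library left out, each Col-0 run alone). NRT1.8 dropped out under the filter of 5 CPM. NRT1.5 changed sign at 0.062 without Col-0 replicate 1, 0.029 without myc2 replicate 2 and 0.018 against Col-0 replicate 3, over a range of -0.12 to 0.062 without each library in turn and over a range of -0.12 to 0.062 without each library in turn and with no call in any; the cause was not tested. Without each library in turn, 5032 to 8417 genes were called in all, 2 to 3 members were higher (the third being NRT2.1, which then passed the filter) and 6 lower, and 15 to 20 wider genes were higher and 22 to 30 lower. The same range of the NIA1 share difference was -3.02 to -2.96 points.

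Replicate numbers did not pair the libraries (correlations of same-numbered libraries -0.0236, 0.0084 and 0.0211). With the replicate block 6639 genes were called in place of 6889, with 2 members higher and 6 lower, and 19 and 27 wider genes. CNX1 lost its call with the block (adjusted p = 0.053) and without Col-0 replicate 1 or any 1 myc2 library (0.0629 to 0.11). Calls were also lost for NRT1.2 without Col-0 replicate 2 or myc2 replicate 1 or 3 (0.0586 to 0.08), CNX6 without Col-0 replicate 2 or any 1 myc2 library (0.052 to 0.0667), G6PD2 without myc2 replicate 3 (0.0521), GLU2 without Col-0 replicate 1 or myc2 replicate 2 (0.0545 and 0.0878), GDH2 without Col-0 replicate 2 or myc2 replicate 2 or 3 (0.0964 to 0.128), ASP2 and DIT1 without myc2 replicate 1 or 3 (0.071 and 0.0628, 0.0524 and 0.0528), NLP8 without myc2 replicate 2 or 3 (0.0582 and 0.0676), TGA4 without myc2 replicate 1 (0.0559) and, as given above, AMT1;4. Against Col-0 replicate 3 alone, a single library whose spread is taken from the others, CNX1, NRT1.2, CNX6, G6PD2, GLU2, GDH2, AMT1;4 and NLP3 had adjusted p from 0.0589 to 0.219. Calls were also gained by edgeR. Without Col-0 replicate 3, NLP7 passed (adjusted p = 0.0495), as did ASP5, GLB1 and NLP4 (0.02, 0.0356 and 0.00803). CNX3 passed without Col-0 replicate 2 (0.0366) and CIPK23 without Col-0 replicate 1 (0.0404). CNX5 had a log2 difference of 0.07 against Col-0 replicates 1 and 2 and of -0.40 against replicate 3, and GLN1;2 of -0.01 and 0.20. Depth limits NRT2.1 and NRT1.8, read at no more than 47 reads per library, and the design limits every exact test to p = 0.1.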
